A study of Mus musculus with 9 samples.

Results

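Irises of alkali-injured mice labeled VEGFR3iLECko were compared with irises of sham-operated VEGFR3fl/fl mice across all genes, with the 3 libraries titled VR3ko set against the 3 titled ShamControl, 6 of the 9 RNA-Seq libraries of the series. The injury placed a filter paper with 0.5 µL of 1 M sodium hydroxide on the cornea of 6-week-old C57BL/6J mice for 60 seconds, and sham eyes received PBS. The injured mice of this comparison carried loxP-flanked alleles of Flt4, the gene of VEGFR3, and Prox1-CreERT2, a tamoxifen-dependent Cre recombinase driven by Prox1, which marks lymphatic endothelial cells (LECs) and is also active in some other cell types. The sham mice were VEGFR3fl/fl littermates without the Cre. By the protocol, Cre-positive mice and littermate controls alike received tamoxifen at a dose of 80 mg/kg once a day from day 13 to day 17 after injury. Irises were collected at 10 weeks, trimmed at the outer edge and freed of cornea, limbus, lens and ciliary body, and each library pooled 3 irises, so that an n of 3 is 3 pools. Male and female mice were used in the study, and the labels do not give the sex of a pool. Another group, injured VEGFR3fl/fl mice (3 libraries), entered the fit and is given beside the comparison. For VR3ko replicates 2 and 3 the label field for genotype names Vegfr4 and Vegfr5, whereas title and description give VEGFR3. Since the groups differed in injury and in genotype together, the part of either in a difference cannot be told apart within the 6 libraries.

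VEGFR3 is the receptor through which VEGF-C and VEGF-D drive the growth of lymphatic vessels. The iris is a thin contractile disc: a stroma of fibroblasts, melanocytes, vessels and nerves lies on a double layer of pigmented epithelium, and a smooth muscle sphincter and an epithelium-derived dilator set the width of the pupil. An alkali burn of the cornea raises the pH of the aqueous humor and inflames the anterior segment, and wounded tissue typically passes through infiltration by neutrophils and macrophages, deposition of matrix and regrowth of vessels.

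Depth was even, with 16617187 to 16838904 estimated counts per sham library and 17561521 to 17591702 per library labeled injured VEGFR3iLECko, and 15010 of the 18349 genes listed passed the filter on low counts. The first principal component held 76.4% of the variance and separated the sham libraries from all 6 injured libraries. One feature other than injury and genotype moved with the groups. The transcripts of the Y chromosome were nearly absent from the libraries labeled injured VEGFR3iLECko: Eif2s3y, a translation initiation factor subunit, was at 331, 538 and 1018 counts in the sham libraries and at 0, 0 and 0 in the injured ones. Ddx3y, a Y-linked RNA helicase, was at 335, 588 and 1224 counts against 2, 0 and 0. In the injured VEGFR3fl/fl libraries Ddx3y was at 977, 1024 and 0 counts, so that replicate 3 also lacked it. Y-linked transcripts, injury and genotype thus differed together. The comparison of labeled injured with sham irises was also fitted with the summed log2 level of the 4 Y-linked genes as a covariate, a term set in this fit largely by the contrast among the 3 injured VEGFR3fl/fl libraries. The comparisons that involve injured VEGFR3fl/fl irises were not tested with it. Values with this covariate are given where it ended the call of a named gene other than the Y-linked ones, or moved a list's count of more than 2 by over 1.5 times.

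Flt4 itself was not lower in the libraries labeled injured VEGFR3iLECko. Its level was 15.6, 13.4 and 14.9 CPM (counts scaled by library size and TMM factor) in the sham libraries and 27.9, 21.0 and 27.4 in the labeled ones, so that the groups did not overlap, and 16.8, 20.7 and 23.0 in the injured VEGFR3fl/fl libraries. The log2 fold change against sham was 0.80 ± 0.15 (± standard error throughout, edgeR quasi-likelihood adjusted p = 0.0016). An exact two-sided permutation test over the 6 libraries gave p = 0.1, the smallest that 3 against 3 allows. With the Y-linked covariate the change was 0.55 (edgeR adjusted p = 0.1). The count covers the whole gene in all cells of the iris, and which part of the gene the floxed allele removes was not used here, so that this level does not test whether the deletion took place in LECs. The groups are therefore named by their labels.

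A large share of the transcriptome differed. Counting as differentially expressed genes (DEGs) those that changed more than 1.5-fold at an adjusted p below 0.05, 2964 were upregulated DEGs (19.7% of the genes tested) and 2259 were downregulated DEGs (15.0%), 5223 in either direction (34.8%). The 3 and 3 libraries did not overlap for 9978 genes (66.5%), 4995 higher (33.3%) and 4983 lower (33.2%) after injury. These shares of all genes tested are the background for the counts of each list below. Each list is counted over the members that passed the filter, and members near 0 in sham could pass it only through injured libraries. The changes upward were the larger ones: 1235 upregulated DEGs exceeded 4-fold and 237 exceeded 32-fold, whereas 349 downregulated DEGs exceeded 4-fold and 21 exceeded 32-fold. The median log2 fold change was 1.64 over the upregulated DEGs, -1.07 over the downregulated DEGs and -0.010 over all genes tested. With the Y-linked covariate 2420 DEGs were up and 1624 down. When libraries were scaled by their totals alone, the median over all genes moved to -0.12 and upregulated genes made up 48.7% of the DEGs in place of 56.7%, so that the share of either direction depends on the scaling. For comparison, injured VEGFR3fl/fl irises had 3323 upregulated (22.1%) and 2630 downregulated DEGs (17.5%), 39.7% in all, against the same sham libraries, and 86 (0.573%) and 70 genes (0.466%), 1.04% in all, were higher and lower in the labeled irises than in the injured VEGFR3fl/fl irises.

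**Figure D1:**
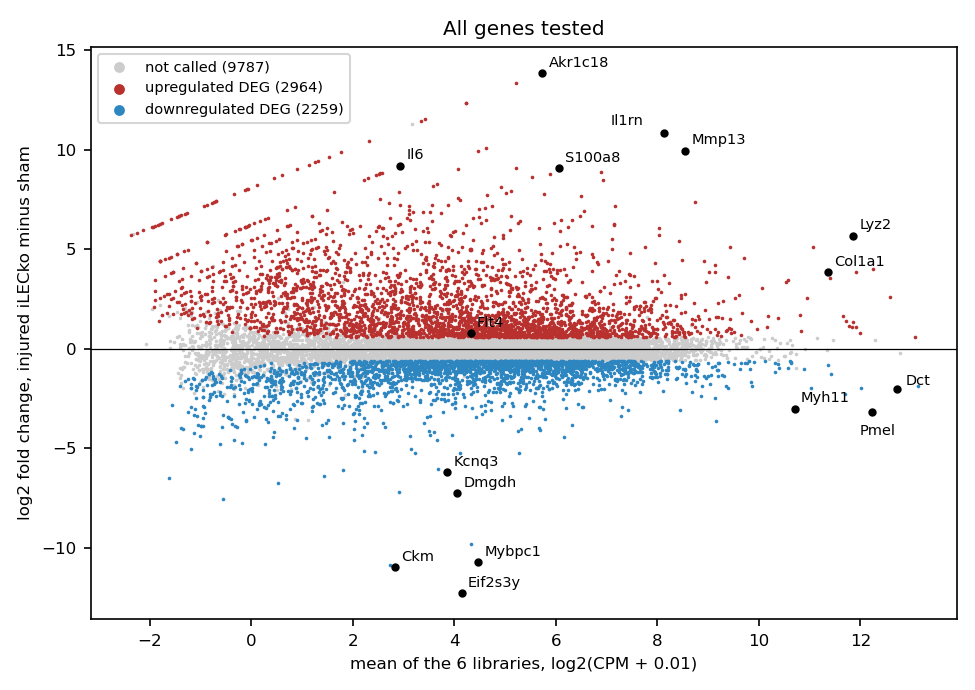
Log2 fold change of the libraries labeled injured VEGFR3iLECko against sham (y axis) by mean level of the 6 libraries (x axis, log2 of CPM plus 0.01), 1 point per gene for the 15010 genes tested. Upregulated DEGs (2964, red) reach farther from 0 than downregulated DEGs (2259, blue), and the straight rows of points at the left are genes with few or no counts in 1 group, whose fitted change depends on the prior count.

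Transcripts that were absent or nearly absent from sham irises led the upregulated genes. Rxfp1 (chr3:79641600-79737951, GRCm38), the receptor of the hormone relaxin, was at 0, 0 and 0 counts in the sham libraries and 805, 1950 and 1142 in the injured ones, at least 1333-fold higher against a floor of 3 counts over the sham group. Tnfsf11 (chr14:78277446-78308043), which encodes RANKL, the cytokine that drives osteoclast differentiation, was at 609, 611 and 748 counts after injury and at 0 in every sham library, at least 673-fold higher. The granzyme genes Gzme and Gzmd, proteases of cytotoxic granules on chromosome 14, were at 0 counts in sham irises and at least 668-fold and 382-fold higher, but they are close copies among which 50-base reads can be divided wrongly. Akr1c18, an aldo-keto reductase that inactivates progesterone, was at 0, 0 and 0 counts in sham irises and 1606, 2994 and 974 after injury, at least 1907-fold higher, and it too belongs to a family of close copies.

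Acod1 (chr14:103047012-103056573), which makes itaconate in activated macrophages, was at 0, 0 and 0 and 194, 275 and 587 counts, at least 361-fold higher, and Marco (chr1:120474538-120505024), a scavenger receptor of macrophages, was at least 179.6-fold higher. Il1rn (chr2:24336860-24351491), the antagonist of the interleukin-1 receptor, rose from 0.222, 0.565 and 0.113 to 368, 695 and 627 CPM (log2 fold change 10.85 ± 0.78, edgeR adjusted p = 5.6e-06). Saa3, an acute-phase apolipoprotein, was at 1, 0 and 1 and 129, 100 and 2332 counts, a ratio of 1314, with a 95% counting interval of 363 to 10857. Injured replicate 3 set much of that value, since the fitted log2 fold change of 10.11 was 7.21 without it. That of Acod1 was 11.46 and 10.87 without the same library, and that of Il1rn 11.65 without sham replicate 2. Brinp3, a gene known mainly from the nervous system, was at 0, 1 and 1 and 920, 463 and 923 counts, a ratio of 1183, with a 95% counting interval of 327 to 9776. With the Y-linked covariate Akr1c18, Gzme, Gzmd and Marco missed the threshold (edgeR adjusted p = 0.066, 0.061, 0.076 and 0.07).

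Among the downregulated genes with the largest changes, 3 were the Y-linked genes Eif2s3y, Kdm5d and Ddx3y and 2 were genes of striated muscle. Ckm (chr7:19411094-19421583), muscle creatine kinase, was at 233, 294 and 235 counts in the sham libraries and 0, 0 and 0 in the injured ones, at least 248-fold lower. Mybpc1 (chr10:88518279-88605229), a myosin-binding protein of slow muscle fibers, was at 739, 875 and 748 and 0, 1 and 0 counts, a ratio of sham to injured of 2302, with a 95% counting interval of 413 to 90947. Others were enzymes of methyl group metabolism: Dmgdh (chr13:93674436-93752823), dimethylglycine dehydrogenase, fell from 30.5, 38.0 and 30.5 to 0.117, 0.453 and 0.0576 CPM (log2 fold change -7.24 ± 0.53), and Bhmt2, a methyltransferase that makes methionine, fell from 12.5, 18.1 and 14.2 to 0.0584, 0.113 and 0.115 CPM (-7.18 ± 0.45). Kcnq3 (chr15:65986374-66286636), a subunit of the M-type potassium channel that muscarinic receptors close, fell from 29.1, 30.9 and 26.3 to 0.409, 0.227 and 0.518 CPM (-6.20 ± 0.34, edgeR adjusted p = 1.2e-06). Otor, otoraplin, known from the inner ear, fell from 1.99, 3.78 and 2.76 to 0, 0 and 0.0576 CPM and Dbpht2 from 5.15, 5.65 and 5.29 to 0.0584, 0 and 0.115 CPM. In all of these the 3 sham libraries lay above the 3 injured ones. Single libraries with a few reads moved the fitted values: the log2 fold change of Mybpc1 was -10.71, and -12.58 without injured replicate 2, that of Dmgdh -8.45 without the same library, and those of Otor and Dbpht2 -6.76 and -6.37, and -8.63 and -7.22 without injured replicate 3. Ddx3y was at -9.79, -9.15 without sham replicate 3 and -12.45 without injured replicate 1, and Kdm5d, a Y-linked histone demethylase, at -10.86 and -10.24 without sham replicate 3. Otor missed the threshold with the Y-linked covariate (edgeR adjusted p = 0.094).

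Most markers of macrophages were higher. Of 18 markers tested, 16 rose and 0 fell, against 19.7% and 15.0% of all genes tested, with a median log2 fold change of 2.86 (13 rose with the Y-linked covariate), and their summed level was 424 to 436 CPM in sham and 7713 to 9514 CPM in injured irises. Lyz2, lysozyme, made up most of that sum after injury, so that the sum follows mainly this gene and not the list as a whole. Lyz2 rose from 136, 144 and 143 to 7811, 7942 and 6154 CPM (5.69 ± 0.27, edgeR adjusted p = 5.4e-07), and which cells made it was not tested. Cd68, a lysosomal glycoprotein, rose from 39.9, 46.4 and 37.0 to 478, 450.0 and 379 CPM, and Csf1r, the receptor on which macrophage survival depends, from 78.4, 73.3 and 78.3 to 226, 211 and 243 CPM. Adgre1, which encodes F4/80, rose from 16.2, 13.9 and 17.3 to 97.4, 94.5 and 84.7 CPM (2.54 ± 0.10) and Mrc1, the mannose receptor CD206, from 41.5, 36.9 and 38.4 to 136, 159.7 and 139 CPM (1.90 ± 0.22). Cx3cr1, the fractalkine receptor of resident macrophages, was at 21.5, 19.8 and 20.9 CPM in sham and 23.0, 16.3 and 18.7 CPM in injured irises, overlapping levels with no call (-0.10 ± 0.18). In pieces of tissue, more cells of a type and more RNA per cell cannot be told apart, here or below.

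Genes of lipid-handling phagocytes rose in part. Of 15 tested, 12 rose and 1 fell (median 2.60). Itgax, the integrin CD11c, had the largest change, from 2.10, 2.09 and 2.196 to 189.7, 167 and 88.4 CPM (6.12 ± 0.36). The lysosomal protease Ctsd rose from 1599, 1727 and 1881 to 10331, 9665 and 11541 CPM. Gpnmb, which pigment cells share with phagocytes, was at 7344, 7872 and 7433 CPM in sham and 7140.4, 6346 and 5815 CPM in injured irises with no call (-0.23). Apoe, apolipoprotein E, passed (0.61, edgeR adjusted p = 0.019), but not without injured replicate 1 (adjusted p = 0.065), sham replicate 1 (0.064) or sham replicate 3 (0.065). Lysosomal and NADPH oxidase genes followed, with 14 of 19 up and 0 down (median 1.35): the cathepsins Ctss (5.12) and Ctsl (0.87) rose, Lamp1 was at 0.53 below the fold limit, and Atp6v0d2, a subunit of the vacuolar proton pump of macrophages and osteoclasts, rose from 1.99, 1.92 and 1.97 to 326, 330.1 and 199 CPM (7.18 ± 0.35).

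Neutrophil markers had the highest median of all lists, 7.37. All 12 that passed the filter rose, of 15 listed. Members near 0 in sham, such as Cxcr2 at 1, 4 and 2 counts, could pass only through injured libraries. The share that rose and the median are therefore in part set by the filter. The summed level of the list was 7.91 to 13.5 CPM in sham and 622 to 1748 CPM in injured irises. S100a8 and S100a9, which form calprotectin, rose from 0.332, 0.169 and 0.225 to 60.0, 76.7 and 265 CPM (9.06 ± 0.89) and from 0.166, 0.452 and 0.845 to 82.7, 142 and 481 CPM (8.90 ± 0.97). Injured replicate 3 was the highest for both, and without it the log2 fold changes were 8.10 and 7.83, while that of S100a9 was 9.55 without sham replicate 3. Csf3r, the receptor of the granulocyte factor G-CSF, rose from 3.71, 3.22 and 4.28 to 208, 245 and 392 CPM, and Cxcr2, the receptor for neutrophil-attracting chemokines, from 0.0554, 0.226 and 0.113 to 45.3, 70.3 and 106 CPM (9.07 ± 0.95, 9.67 without sham replicate 2). The Y-linked covariate left 10 of the 12 above the threshold.

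T cell transcripts rose from low levels. Of 19 markers 17 rose and 0 fell (median 3.78, 14 with the Y-linked covariate), and the count ran from 14 to 18 as single libraries were left out. Cd4, the coreceptor of helper T cells that macrophages can also carry, rose from 3.82, 3.56 and 3.32 to 35.6, 24.0 and 16.64 CPM (2.83 ± 0.31, edgeR adjusted p = 6.7e-05). Thy1, which fibroblasts and LECs also express, rose from 10.97, 10.6 and 9.01 to 153, 190.5 and 296 CPM and Cd247, the zeta chain of the T cell receptor complex, from 2.60, 1.81 and 2.25 to 7.48, 7.53 and 9.84 CPM. Cd3g, a chain of the same receptor, had the largest change, from 1, 0 and 0 to 21, 49 and 30 counts, a ratio of 103, with a 95% counting interval of 18.0 to 4093 (fitted log2 fold change 6.21, 8.05 without sham replicate 1). Others that the study names rested on few reads. Cd3e was at 0, 1 and 3 and 8, 12 and 5 counts (2.57 ± 0.71, edgeR adjusted p = 0.013, 0.051 without injured replicate 2), and without sham replicate 3 its log2 fold change was 3.79. Cd8a was at 5, 5 and 2 and 14, 37 and 10 counts (2.34 ± 0.83, adjusted p = 0.039), and leaving out injured replicate 2 or sham replicate 1, 2 or 3 ended that call (adjusted p = 0.16, 0.08, 0.078 and 0.12). Foxp3, the factor of regulatory T cells, was at 3, 3 and 6 and 13, 15 and 13 counts (1.78 ± 0.56, adjusted p = 0.024), and was lost without injured replicate 2, sham replicate 1 or sham replicate 2 (0.06, 0.08 and 0.077). With the Y-linked covariate all 3 missed the threshold (edgeR adjusted p = 0.053, 0.13 and 0.095). The T cell cytokines Ifng, Il2, Il4, Il5 and Il13 did not reach the filter: Ifng was at 0, 0 and 0 and 0, 1 and 1 counts, Il2 at 0, 0 and 0 and 0, 0 and 0, Il4 at 0, 0 and 0 and 0, 0 and 0, Il5 at 3, 2 and 1 and 1, 4 and 3, and Il13 at 0, 1 and 0 and 0, 2 and 0.

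Other leukocyte lists were smaller or mixed. Of 14 cytotoxic granule and natural killer genes listed, 8 passed the filter and 7 of these rose (5 with the Y-linked covariate). Gzmb rose from 0.0554, 0.226 and 0.282 to 5.73, 4.30 and 5.81 CPM and Gzmc, another of the close granzyme copies, from 0, 0 and 1 to 167, 110 and 329 counts (fitted log2 fold change 8.81, 10.66 without sham replicate 3), while Serpinb9, an inhibitor of granzyme B, was at 0.32 below the fold limit. Of dendritic cell markers 9 of 12 rose, with Fscn1, an actin bundler of mature dendritic cells, at 1.96, Ly75, the endocytic receptor DEC-205, at 2.2 and Itgae, the integrin CD103, at 4.42. Zbtb46, the transcription factor of classical dendritic cells, was at 0.16 with overlapping groups. B and plasma cell genes gave 6 up of the 9 tested, of 15 listed. Among them were Blk (6.14, 7.99 without sham replicate 2), Sdc1 (1.72), Prdm1 (2.26) and Xbp1 (0.78), the last 3 of which many other cells express. Prdm1 missed the threshold with the Y-linked covariate (edgeR adjusted p = 0.06). Mast cell markers did not rise as a group: 1 of 7 was up, the histamine-forming enzyme Hdc, which neutrophils also make, from 0.665, 0.960 and 1.07 to 41.1, 65.2 and 128 CPM (6.43 ± 0.77), whereas Kit (0.38) and Gata2 (0.11) had no call, and 4 of the 7 fell without injured replicate 1.

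**Figure D2:**
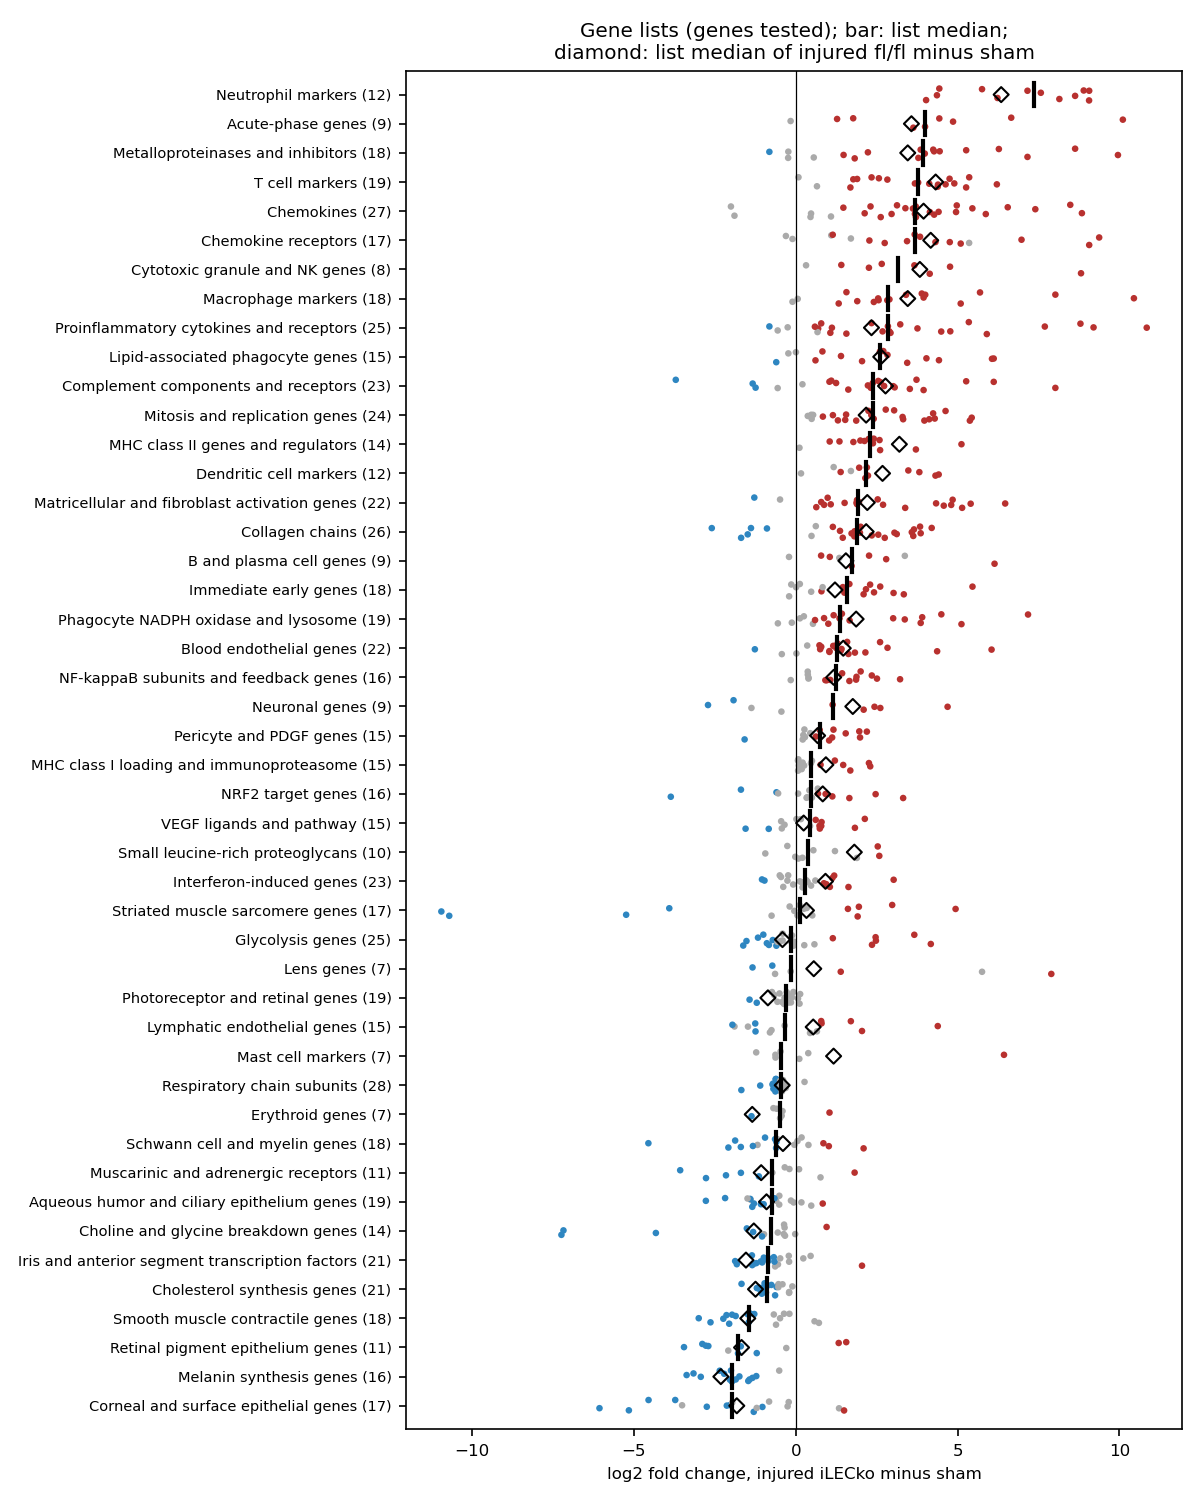
Log2 fold change of the libraries labeled injured VEGFR3iLECko against sham (x axis) for the tested genes of each list other than the Y-linked genes (y axis, number tested in parentheses), red for upregulated DEGs, blue for downregulated DEGs and gray for no call. The black bar marks each list's median and the open diamond its median for injured VEGFR3fl/fl against the same sham libraries. Of these lists, neutrophil markers lie highest and corneal epithelial and melanin synthesis genes lowest.

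Chemokines, the proteins that attract leukocytes, rose broadly. Of 27 tested 22 rose and 0 fell (median 3.68). Ccl6, a chemokine of myeloid cells, rose from 4.10, 5.54 and 5.52 to 811, 1192 and 563 CPM (7.40 ± 0.65). Cxcl5 and Cxcl3, both ligands of Cxcr2, rose from 0.720, 0.508 and 0.788 to 115, 131 and 483 CPM and from 1, 0 and 0 to 139, 204 and 276 counts, the second a ratio of 635, with a 95% counting interval of 114 to 25131. Without injured replicate 3 the Cxcl5 change was 7.50 in place of 8.48, and without sham replicate 1 that of Cxcl3 was 10.68 in place of 8.84. Cxcl12, made by stromal cells, was at 0.47, below the fold limit, whereas its receptor Cxcr4 rose from 3.71, 3.90 and 3.60 to 100.1, 95.5 and 108 CPM (4.76 ± 0.10) and its scavenger receptor Ackr3 had no call (-0.31), but fell with the Y-linked covariate (-1.01, edgeR adjusted p = 0.012). Of 21 chemokine receptors listed 17 were tested and 12 of these rose, Ccr1 from 5.15, 4.74 and 5.52 to 49.2, 88.4 and 83.3 CPM and Cxcr1 from 0, 0 and 0 to 45, 94 and 110 counts, at least 85.2-fold higher.

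Proinflammatory cytokines rose with them, 21 of 25 up and 1 down (median 2.85, 18 up with the Y-linked covariate). Il1b, interleukin-1β, rose from 0.886, 0.734 and 0.957 to 135, 166 and 239 CPM (7.70 ± 0.58, edgeR adjusted p = 7.2e-06). Il6, which drives the acute-phase response, was at 1, 0 and 0 counts in the sham libraries and 282, 256 and 255 in the injured ones, a ratio of 814, with a 95% counting interval of 146 to 32184 (fitted log2 fold change 9.20, 11.04 without sham replicate 1). Tnf rose from 0.332, 0.395 and 0.225 to 3.39, 1.47 and 2.13 CPM (2.85 ± 0.53). Csf3, which encodes G-CSF, was at 0, 0 and 1 and 127, 102 and 370 counts, a fitted log2 fold change of 8.80 (10.64 without sham replicate 3 and 8.0 without injured replicate 3). The shared receptor chain Il6st (0.69) and the TNF receptor Tnfrsf1a (0.78) rose by less. Il18 was the cytokine that fell, from 31.0, 36.8 and 30.6 to 21.8, 19.1 and 15.0 CPM (-0.82). With the Y-linked covariate Il6st and Il18 narrowly missed the threshold (edgeR adjusted p = 0.051 and 0.0504).

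Genes of the NF-κB system, the transcription factor family that mediates much of the response to these cytokines, rose in 11 of 16 cases (median 1.25). Bcl3, a nuclear partner of the p50 and p52 subunits, rose from 6.54, 6.33 and 7.10 to 73.6, 53.1 and 59.7 CPM (3.22 ± 0.14) and the adhesion molecule Vcam1 from 59.2, 63.2 and 69.0 to 224, 219 and 259.7 CPM (1.88 ± 0.13). Nfkb2, which encodes p52, rose from 29.3, 35.8 and 33.4 to 66.8, 58.6 and 80.6 CPM. Rela was at 0.39, below the fold limit, and Nfkbia, the inhibitor IκBα, at -0.16 with overlapping groups. The κB motif, searched on both strands as the consensus of 10 bases shown in capitals below with any base at the fifth position, in the 250 bases before the start of each gene (RefSeq promoters, GRCm38.p6), was held by 2 of the 12 list members with a promoter in the table (16.7%) and by 62 of 11848 tested genes (0.523%). Those members are shown because one rose and the other did not; the motif is in capitals, the Nfkbia window (chr12:55492648-55492716, minus strand) carries it in the opposite orientation, and the Nfkb2 window is chr19:46305680-46305754 on the plus strand. A match of letters is a description and not a tested binding site.
Nfkbia: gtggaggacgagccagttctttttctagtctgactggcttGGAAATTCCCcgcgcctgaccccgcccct
Nfkb2: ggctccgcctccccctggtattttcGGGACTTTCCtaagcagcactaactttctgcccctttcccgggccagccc

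Interferon-induced genes, the antiviral set that type I and II interferons switch on, had a median near 0: 7 of 23 rose and 2 fell (median 0.28, 3 rose with the Y-linked covariate), beside 19.7% and 15.0% of all genes. Ifi204 rose from 3.54, 4.07 and 4.96 to 32.5, 35.6 and 34.2 CPM, Ifit3 fell from 209, 295 and 213 to 115, 133 and 99.0 CPM (-1.05 ± 0.19), and Irgm1 had no call (0.28). Genes of MHC class II, which present antigen to CD4 T cells, rose in 13 of 14 cases (median 2.30): the invariant chain Cd74 rose from 66.1, 77.2 and 90.9 to 557, 371 and 294 CPM, and H2-Aa from 23.3, 25.1 and 33.2 to 218, 157 and 121 CPM. MHC class I and immunoproteasome genes rose in 6 of 15 cases (median 0.47). H2-D1, a class I heavy chain with near copies in the genome, rose from 174, 227 and 189.9 to 1046, 941 and 923 CPM, whereas B2m (0.47), Calr (0.10) and Pdia3 (0.26) were below the fold limit or without a call.

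Acute-phase genes rose in 8 of the 9 cases tested, of 16 listed (median 3.99). Members near 0 in sham, such as Saa3, could pass the filter only through injured libraries, so that this share is in part set by the filter. Serpina3n, a serine protease inhibitor, was at 549, 359 and 821 CPM in sham and 6924, 6367 and 14240.0 CPM in injured libraries (3.99 ± 0.42, edgeR adjusted p = 5.4e-05). Lcn2, lipocalin-2, which binds bacterial siderophores, rose from 5.15, 2.77 and 6.65 to 95.5, 55.5 and 165 CPM and Cp, the ferroxidase ceruloplasmin, from 189, 131 and 199.6 to 429, 339.6 and 491 CPM (1.28 ± 0.20). Of complement genes 18 of 23 rose and 3 fell. C4b rose from 732, 799.7 and 665 to 1732, 1617 and 1349 CPM and Serping1, the C1 inhibitor, from 272, 279 and 287 to 868, 784 and 927 CPM, whereas C2 fell from 411, 437 and 393 to 185, 166 and 173 CPM and C7, a component of the membrane attack complex, from 17.9, 24.2 and 16.95 to 1.93, 1.25 and 1.32 CPM (-3.71 ± 0.29). Vsig4, a complement receptor of tissue macrophages, was at 0, 0 and 0 and 17, 23 and 57 counts, at least 33.2-fold higher, with a fitted log2 fold change of 8.02 (7.33 without injured replicate 3), and missed the threshold with the Y-linked covariate (edgeR adjusted p = 0.053).

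Matrix genes rose to high levels. Collagen chains rose in 19 of 26 cases and fell in 5 (2 with the Y-linked covariate, median 1.90), and their summed level was 4401 to 4644 CPM in sham and 25120.0 to 30141 CPM in injured irises. The fibrillar chains Col3a1, Col1a1 and Col1a2 rose from 491, 553 and 472 to 6966, 6429 and 8309 CPM (3.84 ± 0.26), from 310.2, 376 and 325 to 5860.2, 3719 and 5104 CPM (3.86 ± 0.20) and from 413, 442 and 399 to 5941, 4328 and 4763 CPM (3.58 ± 0.19). Col12a1, which sits on the surface of collagen fibrils, had the largest change, 4.20 ± 0.28. Among the chains that fell were Col4a3, of a specialized basement membrane (-1.69), and Col9a1, known from cartilage and vitreous (-2.60), and neither kept its call with the Y-linked covariate (edgeR adjusted p = 0.075 and 0.14).

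Matricellular and fibroblast activation genes rose in 20 of 22 cases and fell in 1 (median 1.92). Fn1, fibronectin, rose from 138, 122 and 94.1 to 3446, 4885 and 4149.6 CPM (5.14 ± 0.28) and Sparc from 2289, 2340.2 and 2439 to 5222, 4579 and 5136 CPM. Inhba, a subunit of activin A, rose from 0.665, 0.339 and 0.619 to 30.6, 50.7 and 64.7 CPM (6.47 ± 0.37). The member that fell was Acta2, smooth muscle α-actin, a marker of myofibroblasts and of iris muscle alike, from 3486, 4573 and 3634 to 1484, 1270.5 and 2050.4 CPM (-1.28 ± 0.29, edgeR adjusted p = 0.0044, 0.12 with the Y-linked covariate). Metalloproteinases and their inhibitors rose in 14 of 18 cases (median 3.92). Mmp13, a collagenase, rose from 0.665, 0.904 and 0.676 to 827, 231 and 1189.5 CPM (9.96 ± 0.99) and Mmp14, a membrane-bound activator of other proteases, from 350.4, 388 and 349.6 to 1059, 888 and 1081 CPM, whereas the inhibitors Timp3 (-0.23) and Timp2 (0.55) had no call, the second below the fold limit, which it passed without injured replicate 3 (0.61) and with the Y-linked covariate (0.59). Small leucine-rich proteoglycans, which space collagen fibrils, rose in 2 of 10 cases and fell in 0, beside 19.7% and 15.0% of all genes (median 0.37, 1.40 with the Y-linked covariate, 3 and 4 rose and 1 fell when injured VEGFR3fl/fl replicate 1 or 2 was left out): Bgn (2.53) and Aspn (2.58) rose, and Lum (0.54) and Dcn (-0.94) had no call. Dcn was lower in every injured library, 2086, 2439 and 2169 against 1162, 1309.7 and 1009.7 CPM, and passed when injured VEGFR3fl/fl replicate 1 or 2 was left out of the fit (edgeR adjusted p = 0.0038 and 0.024) and in a fit of the 6 libraries alone (1.7e-04).

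Blood vessel genes rose. Of 22 blood endothelial genes 18 rose and 1 fell (median 1.27), and the counts were the same with the Y-linked covariate. Pecam1, the junction protein CD31, rose from 42.6, 50.05 and 49.0 to 247, 301 and 314 CPM (2.60 ± 0.11, edgeR adjusted p = 3.6e-07) and Cdh5, VE-cadherin, from 73.7, 72.0 and 78.7 to 297, 342 and 357 CPM (2.15 ± 0.16). Eng (0.73) and Plvap, of fenestrated endothelium (1.41), rose as well. Aplnr, the apelin receptor of sprouting vessels, had the largest change, from 1.496, 1.30 and 1.75 to 120.0, 94.9 and 87.2 CPM (6.05 ± 0.29). Cldn5, a tight junction claudin of endothelial barriers, was the one that fell, from 95.5, 136 and 109 to 51.1, 44.3 and 46.3 CPM (-1.27 ± 0.15). Genes of pericytes and PDGF signaling rose in 9 of 15 cases, 4 with the Y-linked covariate: Pdgfrb rose from 145, 135 and 128 to 382, 385 and 421 CPM, Mcam from 83.2, 90.7 and 79.3 to 342, 387 and 432 CPM, and Rgs5 from 459.6, 463 and 421 to 779, 1002 and 964 CPM (edgeR adjusted p = 0.16 with the covariate), whereas the ligand Pdgfa fell from 249.6, 327 and 249 to 95.6, 79.2 and 101 CPM.

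Lymphatic genes had no common direction. Of 15 tested 5 rose and 3 fell, beside 19.7% and 15.0% of all genes (3 and 3 with the Y-linked covariate, median -0.34 and 0.89, the opposite sign). Prox1, the transcription factor that specifies LECs and drives the Cre, was at 55, 17 and 27 counts in sham and 16, 20 and 21 in injured libraries with no call (-0.75 ± 0.67). Lyve1, the hyaluronan receptor of lymphatic capillaries and of some macrophages, was at 4.21, 3.56 and 4.05 and 1.11, 1.93 and 3.74 CPM, overlapping levels with no call (-0.80 ± 0.73). Reln, a secreted glycoprotein of lymphatic endothelium and neurons, fell from 567, 435 and 513 to 223, 234 and 178 CPM (-1.25 ± 0.13), and Pdpn, podoplanin, rose from 328, 329 and 355 to 611, 565 and 567 CPM (0.78 ± 0.11). Both genes are also expressed outside the lymphatics, and which cells made them was not tested. Of VEGF ligands, receptors and processing genes 7 of 15 rose and 2 fell (3 and 2 with the Y-linked covariate). The VEGFR3 ligand Vegfd fell from 20.5, 21.2 and 17.01 to 8.88, 11.8 and 12.1 CPM (-0.84 ± 0.15), and Vegfc was lower in all 3 injured libraries, 16.2, 15.6 and 16.3 against 11.7, 11.2 and 12.2 CPM, but by less than 1.5-fold (-0.45 ± 0.16, edgeR adjusted p = 0.035). Adamts3, the protease that activates VEGF-C, rose from 1.66, 1.02 and 1.18 to 4.15, 5.49 and 7.37 CPM. Vegfa (-0.35) and the coreceptors Nrp1 (0.16) and Nrp2 (0.44) were not called.

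The smooth muscle program of the iris was lower. Of 18 contractile genes 0 rose and 11 fell (median -1.43, 9 fell with the Y-linked covariate), and their summed level was 12175 to 15517 CPM in sham and 4676 to 6522 CPM in injured irises. Myh11, smooth muscle myosin, fell from 2665, 3384 and 2863 to 391, 306 and 417 CPM (-3.0 ± 0.20, edgeR adjusted p = 3.7e-06). Mylk, the kinase that triggers contraction by phosphorylating myosin light chain, fell from 1462, 1528 and 1376 to 431, 369.9 and 403 CPM (-1.86 ± 0.092). Tpm1, tropomyosin, was at -0.36 and Tagln at -0.49, both with overlapping groups. Receptors for acetylcholine and catecholamines, which constrict and dilate the pupil, fell in 5 of 11 cases and rose in 1. Chrm2 fell from 59.4, 55.4 and 54.2 to 4.38, 3.12 and 6.68 CPM (-3.57 ± 0.37) and Chrm4 from 71.8, 81.9 and 68.1 to 12.1, 8.33 and 11.97 CPM (-2.78 ± 0.26), whereas the α2A receptor Adra2a rose from 11.96, 8.76 and 9.80 to 39.5, 28.0 and 40.1 CPM (1.82 ± 0.22).

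Striated muscle genes were few in sham irises, and 17 of the 27 listed were tested. Of these 5 rose (3 without injured replicate 2) and 4 fell, beside 19.7% and 15.0% of all genes. Beside Ckm and Mybpc1, Car3, the carbonic anhydrase of slow muscle, fell from 114, 52.2 and 61.2 to 1.17, 1.87 and 2.94 CPM (-5.24 ± 0.47) and Ttn, titin, from 9.03, 9.49 and 7.77 to 0.643, 0.396 and 0.691 CPM (-3.91 ± 0.25), whereas the embryonic myosin Myh3 rose from 5.71, 5.71 and 5.12 to 16.1, 18.5 and 15.9 CPM (1.61 ± 0.22). The E-box CAGCTG, read by myogenic factors, stood before the start of 5 of the 12 sarcomere list members with a promoter in the table (41.7%) and of 14.7% of all tested genes with one. These members shared no direction: Ckm and Mybpc1 fell, another had the largest rise on the list (log2 fold change 4.94), and the rest had no call. The palindromic MEF2 consensus was searched only in a looser form, with any base allowed at its middle positions. A match to this form stood before 1 of the 12 (8.33%), Ttn, and before 3.29% of all. These are not the shares of promoters that hold the MEF2 consensus itself, which was not searched.

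Pigment genes were the clearest group to fall. Of 16 genes of melanin synthesis and the melanosome 0 rose and 15 fell (median -1.96), the same number with the Y-linked covariate and without any single library. All 16 were lower in each injured library than in each sham library, beside 33.2% of all genes. Their summed level was 32958 to 35363 CPM in sham and 6452 to 8623 CPM in injured irises. Dct, dopachrome tautomerase, fell from 10421, 11134 and 10932 to 3110.5, 2655 and 2148 CPM (-2.04 ± 0.20, edgeR adjusted p = 4.2e-05). Pmel, whose fibrils carry melanin in the melanosome, fell from 8577, 9222 and 8121 to 1397, 819 and 679 CPM (-3.16 ± 0.29). Tyrp1 fell from 6377, 6672 and 6713 to 1823, 1765 and 1528 CPM (-1.95 ± 0.24) and Tyr, tyrosinase, the rate-limiting enzyme, from 917, 905 and 916 to 345, 376 and 359.8 CPM (-1.34 ± 0.14). Kcnj13, a potassium channel of pigmented epithelium, had the largest change, from 264, 309.5 and 282 to 32.4, 24.7 and 25.4 CPM (-3.38 ± 0.15). Mitf, the master transcription factor of pigment cells, fell from 137, 142 and 147 to 56.8, 60.7 and 65.6 CPM (-1.22 ± 0.10).

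Mitf and related factors read the M-box, an E-box flanked by a T, searched here as TCATGTG on both strands. Within the 250 bases before the start it was held by 7 of the 11 melanin list members with a promoter in the table (63.6%) and by 282 of 11848 tested genes (2.38%); this motif was searched after the levels of these genes were known. The 7 windows (RefSeq, GRCm38.p6), a window for each gene, are shown because all 7 genes fell, with the motif in capitals and up to 40 bases on either side. They lie at chr7:87493513-87493574 for Tyr (minus strand), chr4:80834126-80834212 for Tyrp1 (plus), chr14:118052351-118052437 for Dct (minus), chr7:64153653-64153739 for the channel gene Trpm1 (plus), chr8:123406990-123407076 for the melanocortin receptor gene Mc1r (plus), chr2:125068074-125068126 for the exchanger gene Slc24a5 (plus) and chr1:87394795-87394881 for Kcnj13 (minus), the last 2 with the motif on the opposite strand. Dct holds another match, on the opposite strand (chr14:118052432-118052496), whose window is not shown. A match of letters is not a tested binding site.
Tyr: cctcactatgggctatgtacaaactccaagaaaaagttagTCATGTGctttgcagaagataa
Tyrp1: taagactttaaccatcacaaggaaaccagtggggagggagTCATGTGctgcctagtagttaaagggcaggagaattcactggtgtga
Dct: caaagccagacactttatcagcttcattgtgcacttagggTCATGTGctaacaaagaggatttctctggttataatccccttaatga
Trpm1: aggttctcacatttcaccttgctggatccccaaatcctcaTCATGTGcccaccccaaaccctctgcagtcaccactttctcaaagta
Mc1r: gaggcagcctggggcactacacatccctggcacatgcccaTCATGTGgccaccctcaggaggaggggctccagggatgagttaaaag
Slc24a5: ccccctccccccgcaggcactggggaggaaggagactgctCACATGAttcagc
Kcnj13: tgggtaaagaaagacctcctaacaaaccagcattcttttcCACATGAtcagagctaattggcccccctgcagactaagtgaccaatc

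The genes before which these windows lie fell, with log2 fold changes from -1.34 for Tyr and -1.74 for Mc1r (-2.36 without injured replicate 1) to -2.35 for Slc24a5 and -3.38 for Kcnj13, with Tyrp1, Trpm1 and Dct at -1.95, -1.98 and -2.04.

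**Figure D3:**
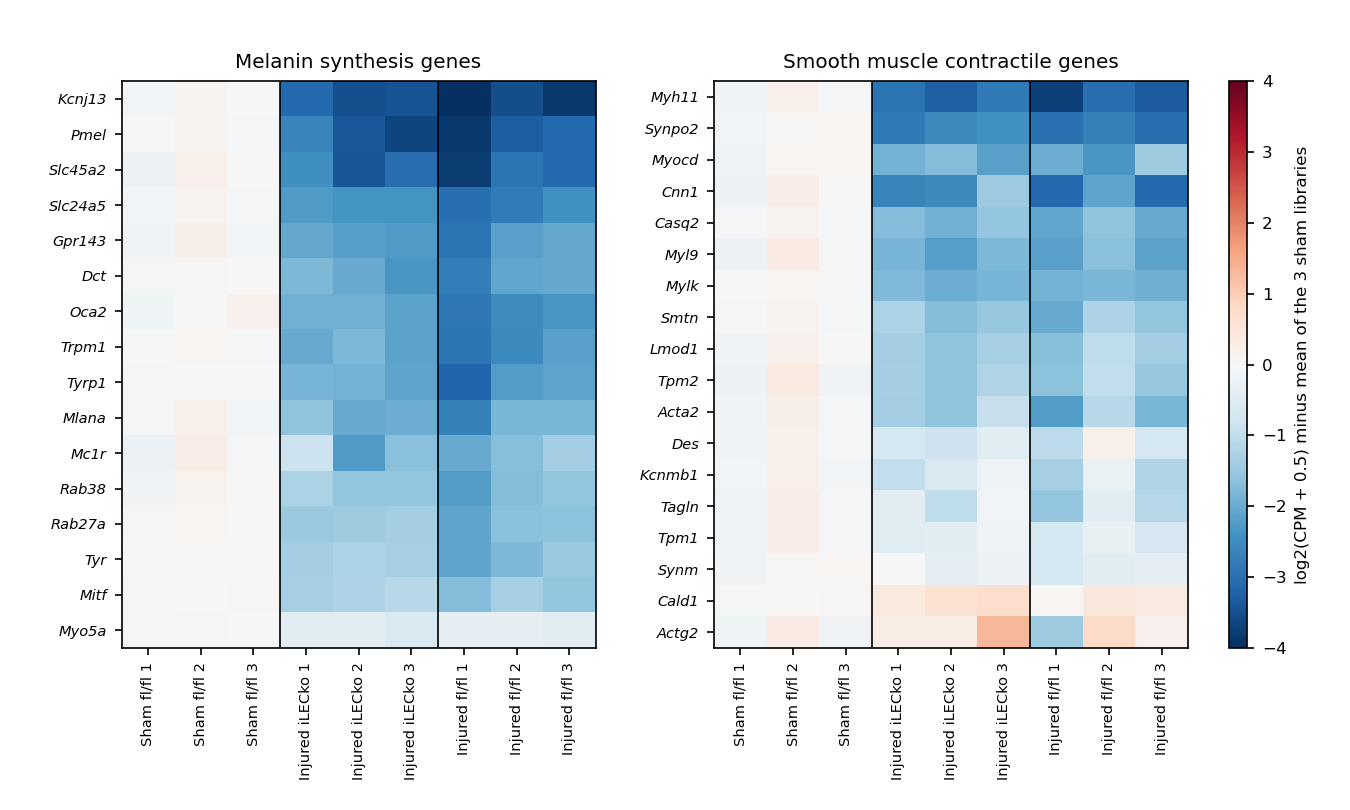
Level of each tested melanin synthesis gene (left) and smooth muscle contractile gene (right) in the 9 libraries (columns), as log2 of CPM plus 0.5 minus the mean of the 3 sham libraries, with blue for lower and red for higher. All melanin genes are lower in the 6 injured libraries than in the sham libraries, whereas the muscle genes are mixed, with Cald1 higher in each library labeled injured VEGFR3iLECko than in each sham library and without a call.

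Transcription factors that pattern the iris and anterior segment fell in 13 of 21 cases and rose in 1 (median -0.85, 9 fell with the Y-linked covariate). Pax6, the eye master regulator, fell from 737, 749.7 and 778 to 339, 299 and 282 CPM (-1.30 ± 0.10, edgeR adjusted p = 6.2e-06) and Otx1 from 208, 197 and 196 to 97.9, 92.0 and 93.5 CPM (-1.08 ± 0.22). Foxc2, a forkhead factor of periocular mesenchyme and lymphatic valves, rose from 2.88, 2.49 and 3.27 to 15.7, 9.52 and 10.5 CPM (2.05 ± 0.27). Zic1 was lower in every injured library (-0.66, edgeR adjusted p = 0.045), and the call was lost on leaving out any of the 6 libraries, with adjusted p between 0.074 and 0.11, and with the Y-linked covariate (0.097). Schwann cell and myelin genes fell in 9 of 18 cases and rose in 3. S100b, a calcium-binding protein of glia, fell from 227, 312 and 234 to 72.6, 46.5 and 63.1 CPM (-2.08 ± 0.23), while Pmp22, a protein of peripheral myelin, stayed without a call (-0.044). Genes of aqueous humor secretion and ciliary epithelium fell in 8 of 19 cases (5 with the Y-linked covariate), among them the bicarbonate transporter Slc4a5, from 912, 737 and 890.3 to 389, 368 and 242 CPM (-1.35 ± 0.18), whereas the water channel Aqp1 rose from 521, 558 and 499 to 774, 1011 and 1025 CPM (0.83 ± 0.12). Ttr, transthyretin, was at 128, 162 and 162 and 11.4, 21.2 and 33.3 CPM (-2.78, edgeR adjusted p = 0.016), and passed neither without injured replicate 1 nor without injured replicate 2 (0.057 and 0.051). Its log2 fold change was -1.29 with the Y-linked covariate (edgeR adjusted p = 0.44). Atp6v1c2 and Cacna1e, which the study used as signs of ciliary body, were at 0.332, 1.41 and 0.563 against 0.234, 0.340 and 0.288 CPM and at 1.72, 1.07 and 1.24 against 1.52, 1.30 and 1.73 CPM, with no call for either.

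**Figure D4:**
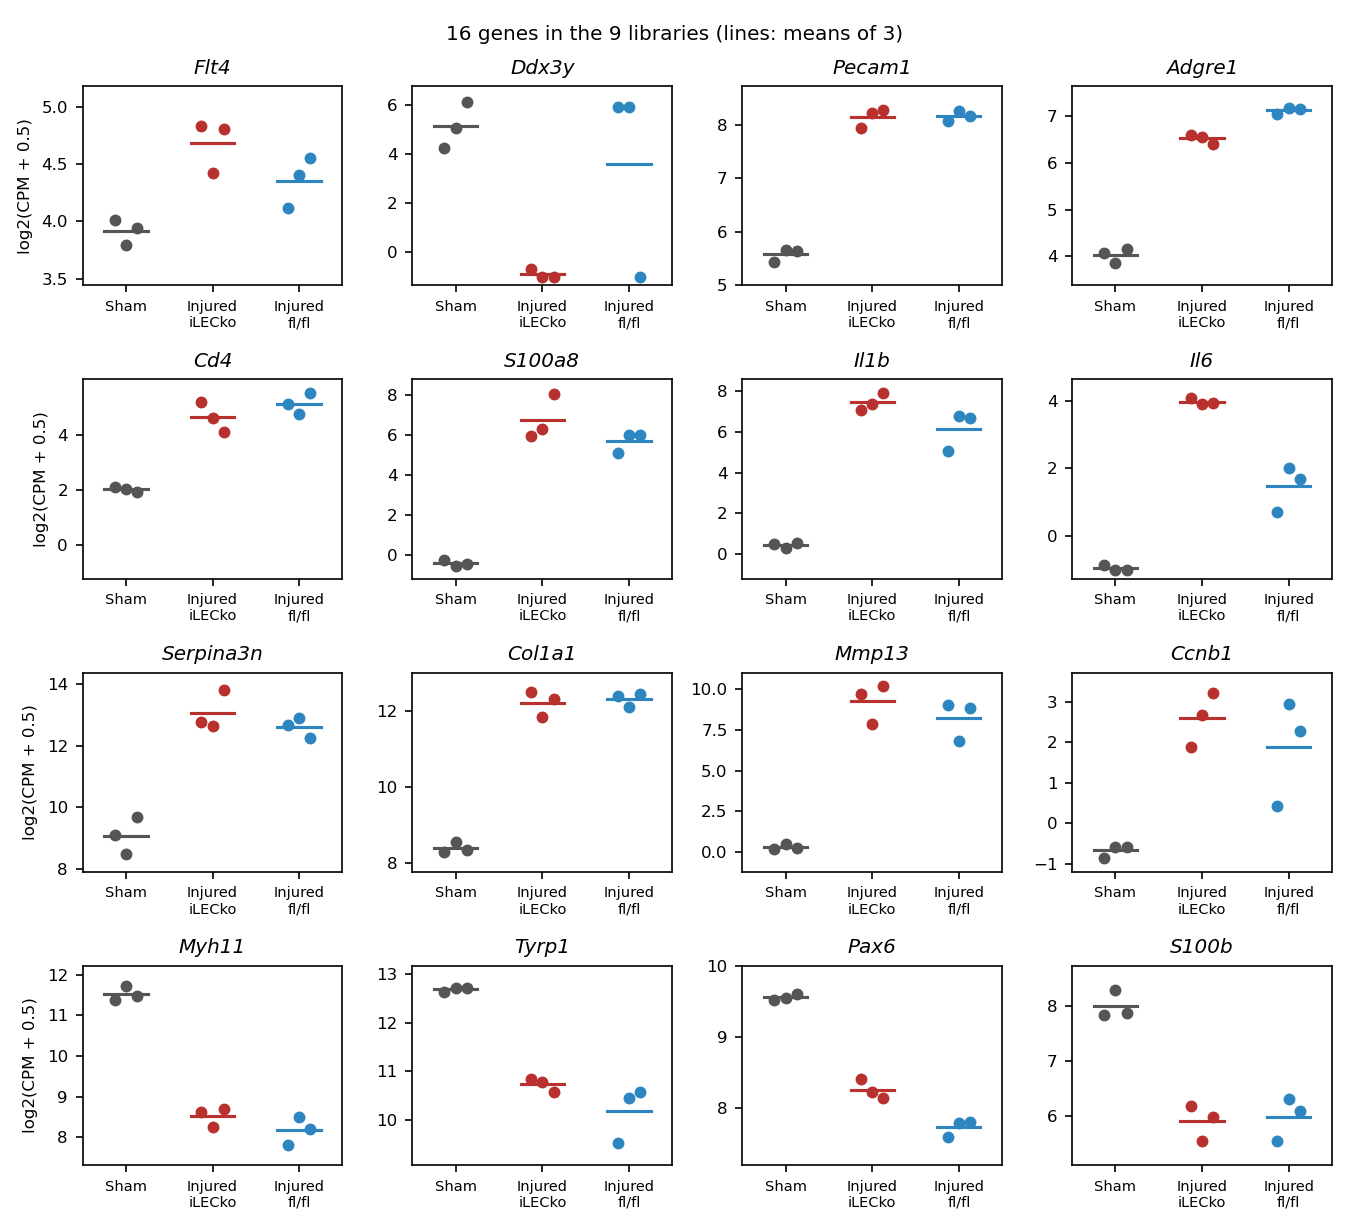
Level of 16 genes in the 9 libraries, as log2 of CPM plus 0.5 (y axis, a scale of its own in each panel), with a point per library and a line at each group's mean. Flt4 is higher in the libraries labeled injured VEGFR3iLECko than in sham libraries, Ddx3y is near 0 in those 3 and in 1 injured VEGFR3fl/fl library, and for the other 14 genes the means of both injured groups lie on the same side of the sham mean.

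Genes of cell division rose. Of the 24 tested, 20 rose and 0 fell (median 2.37, 16 with the Y-linked covariate). All 24 were higher in each injured library than in each sham library, beside 33.3% of all genes. Ccnb1, the cyclin that triggers mitosis, rose from 0.0554, 0.169 and 0.169 to 3.21, 5.89 and 8.81 CPM (5.44 ± 0.89). Mcm6, of the replicative helicase, rose from 18.8, 22.3 and 20.8 to 38.9, 50.2 and 47.9 CPM, and Pcna (0.37) and Mcm7 (0.49) were below the fold limit. Immediate early genes rose in 12 of 18 cases (median 1.58). Junb rose from 94.5, 84.6 and 181 to 605, 578 and 437 CPM (2.17 ± 0.29) and Fosl1 from 4, 1 and 0 to 83, 69 and 78 counts (edgeR adjusted p = 0.002, 0.065 with the Y-linked covariate, fitted log2 fold change 5.46 and 6.96 without sham replicate 1), whereas Jund had no call (-0.14). Egr1 was at 222, 208 and 695 in sham and 388, 281 and 305 CPM in injured libraries (-0.21), and without sham replicate 3 it passed with the opposite sign (0.60, edgeR adjusted p = 0.017).

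Metabolic genes fell in several lists. Of 21 cholesterol synthesis genes 0 rose and 14 fell (median -0.88). Hmgcs1, which makes the precursor of mevalonate, fell from 257, 282 and 271 to 127, 147 and 129.6 CPM (-1.0 ± 0.14) and Srebf2, the transcription factor that controls the pathway, from 315, 311 and 311 to 177, 164 and 154 CPM (-0.92 ± 0.082). Respiratory chain subunits fell in 10 of 28 cases, beside 15.0% of all genes (median -0.47, 6 fell with the Y-linked covariate). Of the 28, 27 were lower in each injured library than in each sham library, beside 33.2% of all genes. The ATP synthase subunits Atp5b (-0.72) and Atp5a1 (-0.69) fell, as did the muscle isoform Cox8b (-1.68) and Cox4i1 (-0.61). Cox4i1 dropped below the fold limit without sham replicate 2 (-0.53) or injured replicate 2 (-0.54), and both Cox4i1 and Cox8b missed the threshold with the Y-linked covariate (edgeR adjusted p = 0.073 and 0.078). Glycolysis genes went both ways, 6 up and 8 down of 25: Hk3, the hexokinase of myeloid cells, rose from 2.27, 2.03 and 1.80 to 39.8, 38.6 and 32.1 CPM, Aldoa fell (-0.71), and Pkm (-0.15) and Gapdh (-0.071) had no call. Genes of choline and glycine breakdown fell in 6 of 14 cases and rose in 1. Beside Dmgdh, the members Aldh7a1 (-0.56), Gldc (-0.37) and Dld (-0.35) had no call, and Aldh7a1 passed without injured replicate 1 (-0.63). NRF2 target genes rose in 6 and fell in 3 of 16 cases, beside 19.7% and 15.0% of all genes. The ferritin chains Fth1 and Ftl1 rose from 1412, 1740.5 and 1533 to 5364, 5127 and 4263 CPM and from 1947, 2520.1 and 2132 to 5165, 4786 and 4479.9 CPM, Prdx1 had no call (0.42) but rose with the Y-linked covariate (0.86), and Gpx2 was at 15, 24 and 11 and 1, 1 and 1 counts, a ratio of sham to injured of 16.2, with a 95% counting interval of 5.25 to 81.4.

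Markers of tissues next to the iris also moved. Corneal and surface epithelial genes fell in 9 of 17 cases and rose in 1, with a summed level of 1177 to 1237 CPM in sham and 495 to 637 CPM in injured irises. Pax6, given above among the iris factors, is also on this list and holds a large part of that sum. The sum is therefore not a measure of corneal tissue alone. The keratins Krt4 and Krt12 were low. Krt4 fell from 10.7, 9.72 and 0.225 to 0, 0.170 and 0.115 CPM (-6.07, -6.73 without injured replicate 2), with sham replicate 3 near the injured levels. Krt12, of the cornea, fell from 1.72, 1.75 and 1.41 to 0.409, 0.170 and 0.518 CPM (edgeR adjusted p = 0.097 with the Y-linked covariate). Krt18, of simple epithelia, was at -1.03 (edgeR adjusted p = 0.037) and was lost on leaving out any sham library or injured replicate 2 or 3, with adjusted p between 0.062 and 0.11, and with the Y-linked covariate (0.23), and Perp had no call (-0.25). Retinal pigment epithelium genes fell in 7 of 11 cases and rose in 2 (3 and 1 with the Y-linked covariate), those that fell including Rdh5, from 158, 163 and 172 to 55.2, 53.6 and 34.2 CPM, and Rgr, from 70.1, 93.9 and 78.5 to 3.91, 5.10 and 13.1 CPM (-3.46, -4.16 without injured replicate 3, edgeR adjusted p = 0.3 with the covariate). Of 19 photoreceptor and retinal genes 0 rose and 2 fell, beside 19.7% and 15.0% of all genes (median -0.29, 2.41 with the Y-linked covariate). The 2 were Abca4 (-1.43) and Rlbp1 (-1.21), both also made by pigmented epithelium. Lens genes gave 2 up and 2 down of 7 tested, beside 19.7% and 15.0% of all genes (1 down with the Y-linked covariate and without sham replicate 1 or 2 or injured replicate 1 or 3): Cryaa rose from 1, 2 and 0 to 274, 337 and 175 counts, a ratio of 269, with a 95% counting interval of 91.7 to 1307 (fitted log2 fold change 7.90, 8.74 without sham replicate 2), Cryab fell from 487, 615 and 508 to 254, 212 and 169.9 CPM, and Bfsp2 had no call (-0.64), but passed when injured VEGFR3fl/fl replicate 1 was left out of the fit (edgeR adjusted p = 0.0015). Erythroid genes gave 1 up and 1 down of 7, beside 19.7% and 15.0% of all genes. Hbb-bs was at 194, 233 and 421 and 139, 97.7 and 368 CPM and the near-identical copies Hba-a1 and Hba-a2 at 169.5, 203 and 363 and 134, 88.8 and 321 CPM and at 159, 194 and 356 and 116, 79.8 and 273 CPM, with no call. Without injured replicate 3 Hba-a2 passed (-1.26, edgeR adjusted p = 0.045). Neuronal genes rose in 5 and fell in 2 of the 9 cases tested, of 15 listed (4 and 1 with the Y-linked covariate). Nefm, of the axonal cytoskeleton, rose from 2.16, 1.19 and 2.76 to 34.9, 106 and 17.7 CPM (4.69, 3.69 without injured replicate 2, the highest, and an edgeR adjusted p of 0.052 with the Y-linked covariate) and Stmn2 from 3.93, 4.07 and 3.55 to 17, 17.8 and 14.7 CPM. Syt1, the calcium sensor of synaptic vesicles, was at 32.8, 25.1 and 25.96 and 7.01, 2.15 and 3.63 CPM (-2.71, edgeR adjusted p = 0.03), and its call was lost without any sham library or injured replicate 2 or 3, with adjusted p between 0.057 and 0.096. Its log2 fold change was -0.74 with the Y-linked covariate (edgeR adjusted p = 0.72). The part of such tissues in the other results was not tested.

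Set beside injured VEGFR3fl/fl irises, which were compared with the same sham libraries, the labeled irises moved the same way in most lists. The median log2 fold change against sham was 7.37 for neutrophil markers in the labeled irises and 6.35 in injured VEGFR3fl/fl irises, 2.86 and 3.46 for macrophage markers, 3.78 and 4.32 for T cell markers, 2.30 and 3.20 for MHC class II genes, 1.90 and 2.17 for collagen chains, -1.96 and -2.32 for melanin synthesis genes and -0.85 and -1.54 for iris transcription factors. The tested difference between both injured groups called 4 of the 18 macrophage markers as lower and 1 as higher in the labeled irises, beside 0.466% and 0.573% of all genes. It called 0 of the 12 neutrophil, 19 T cell, 14 MHC class II, 26 collagen and 16 melanin synthesis genes in either direction. Of the 21 iris transcription factors it called 1 as higher and 0 as lower. The gaps between the medians were not themselves tested. Injured VEGFR3fl/fl libraries also spread widely, with Cd74 at 1274, 492 and 756 CPM. Adgre1 was lower in the labeled irises, 97.4, 94.5 and 84.7 against 132, 145 and 144 CPM (log2 difference -0.60 ± 0.091, edgeR adjusted p = 0.028), and so was Cx3cr1, 23.0, 16.3 and 18.7 against 47.5, 32.5 and 31.4 CPM (-0.94 ± 0.18, adjusted p = 0.042). Il6 was higher in the labeled irises, 16.5, 14.5 and 14.7 against 1.15, 3.57 and 2.70 CPM (2.61 ± 0.37, adjusted p = 0.026), and so was Csf3, 7.42, 5.78 and 21.3 against 1.46, 0.351 and 0.172 CPM (4.12 ± 0.76, adjusted p = 0.042).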

How the data were processed

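Irises of 9 pools were profiled by RNA-Seq with 50-base single-end reads. Per the labels and methods, the authors aligned reads to mm10 with HISAT2, version 2.0.4, and with Bowtie2, version 2.2.5, and compared groups with DESeq2 (v1.4.5). The deposited values are estimated counts per gene, 9.832% to 10.32% of them not whole per library, and the program and annotation that produced them are not given in the sources used here. Counts of transcripts shared between copies depend on how reads were divided, and strand was not known.

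Here counts were rounded, filtered (edgeR's filterByExpr), scaled by TMM and tested with edgeR's quasi-likelihood test (v4.0.16, R v4.3.3) in 1 fit of all 9 libraries by group, with Benjamini-Hochberg adjustment over 15010 genes. DEGs changed more than 1.5-fold at an adjusted p below 0.05. On counts simulated from the mean and spread of each gene (14855 genes), 183 of 200 genes changed by 3-fold were recovered (91.5%), with 1 false call. Only those 200 genes differed, as many up as down. In the data 34.8% of the genes tested were called, so that the simulation does not give the rate of false calls or the effect of scaling here. Intervals and floors cover counting error only, at 95%. Replicate libraries differed by more than sampling noise in every pair. P-values measure the spread between pools.

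Genes named were the 10 largest upregulated and downregulated DEGs with no overlap and a mean of at least 1 CPM, the 3 members of each list with the highest mean CPM and the one with the largest change, and genes the study names. A further 18 were chosen after their values were seen. Some genes the rule selects are not reported here. The 47 lists, like the comparison itself, were chosen with earlier results of these data known. Positions and promoters came from RefSeq (GRCm38.p6). Alternatives were other scalings (RLE, upper quartile, library totals), filters (at least 1 count, at least 1 CPM in 3 libraries), DESeq2 (v1.42.0), other fold limits, only the 6 libraries compared, a replicate block, the Y-linked covariate (the sum of log2 CPM plus 1 over Ddx3y, Eif2s3y, Kdm5d and Uty) and each library left out.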

Additional observations from a re-analysis of the deposited data

Results flagged for a closer look

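Several of the genes named above differed by edgeR's test between the libraries labeled injured VEGFR3iLECko and the injured VEGFR3fl/fl libraries, which is the test of the difference between their changes against the shared sham libraries. Il6 and Csf3, both inducible cytokine genes, were higher in the labeled irises by 2.61 and 4.12 on the log2 scale. Cp was higher by 1.17 (adjusted p = 0.038), at 429, 339.6 and 491 CPM against 221, 151 and 186 CPM and 189, 131 and 199.6 CPM in sham. The glycine cleavage gene Gldc was higher by 1.32 (adjusted p = 0.021), at 108, 91.2 and 84.4 CPM against 38.5, 36.9 and 38.4 CPM and 135, 95.01 and 138 CPM in sham. Reln was higher by 0.75 (adjusted p = 0.036), at 223, 234 and 178 CPM against 129, 124 and 126 CPM, and both injured groups lay below sham. The macrophage genes Adgre1 and Cx3cr1 were lower in the labeled irises, with log2 differences of -0.60 and -0.94. Y-linked transcripts were present in the first and second injured VEGFR3fl/fl libraries and nearly absent from the labeled ones, and their part in these differences was not tested.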

How the results depend on the processing

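The number of upregulated DEGs stayed within 1.5 times of 2964 under every alternative. The number of downregulated DEGs (2259) was 3953 with no fold limit (4222 up) and 1268 with a limit of 2-fold (2179 up), the 2 settings that moved it by more, since each changes the limit itself. Leaving out single libraries gave 2797 to 3077 up and 1953 to 2367 down, DESeq2 gave 2973 and 2245, and library totals gave 2646 and 2783. Flt4 lost its call with the Y-linked covariate (0.55, adjusted p = 0.10) and ranged from 0.72 to 0.92 without single libraries. The cause was not tested.

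Same-numbered sham and labeled libraries correlated at 0.0964, 0.0961 and 0.0139 in their deviations from the group means. Each labeled library but the third correlated best with its own number among sham libraries. The paper reports several sequencing experiments, and whether a replicate number marks an experiment is not given. With so few libraries behind each group mean, these correlations cannot decide whether same-numbered libraries shared a batch. The main fit did not pair them. A replicate block gave 2912 up and 2221 down, and with it the globin genes Hba-a2 (-0.68, edgeR adjusted p = 0.018) and Hbb-bs (-0.63, 0.024) passed.

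No named gene called in the main test changed sign under any alternative. Uncalled values changed sign with the Y-linked covariate for Atp6v1c2 (0.47), Cx3cr1 (0.18), Egr1 (0.33), Gapdh (0.015), Jund (0.13), Lyve1 (0.26), Nfkbia (0.38) and Prox1 (1.09), and for the medians of mast cell (0.15), lymphatic (0.89) and photoreceptor genes (2.41). Library totals turned Calr (-0.017) and Gata2 (-0.0015), and the fit of 6 libraries turned the lymphatic median (0.052). Without single libraries the range included 0 for Calr (-0.13 to 0.25), Cx3cr1 (-0.25 to 0.0090), Egr1 (-0.50 to 0.60), Nfkbia (-0.37 to 0.29) and Pmp22 (-0.071 to 0.0046), and for the medians of mast cell (-1.91 to 0.060), lens (-0.29 to 0.044) and photoreceptor genes (-0.81 to 0.77). The cause of these changes was not tested. Of the genes named, 3636 values in all kept their direction and side of the threshold, 64 lost a call and 18 gained one, with DESeq2 giving no adjusted p for Saa3, Syt1 and Ttr. T cell genes with few counts were among the calls lost.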
